A study of Mus musculus with 32 samples.

Results

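The 9 genes described here belong to microglia and to the first step of the complement cascade, and were taken from 1 fixed list. They are the complement genes *C1qa*, *C1qb* and *C1qc*, the receptor genes *Csf1r*, *Cx3cr1*, *P2ry12* and *Trem2*, the membrane protein gene *Tmem119* and the protease gene *Ctss*. All 9 were found among the 53715 genes of the deposited count tables, by the GENCODE M21 identifier of each listed symbol. The list was chosen with earlier results of these data known. All 9 had counts in each of the 32 libraries, with 154 as the lowest (*Trem2*), so that none was lost to a filter on low values.

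Polyadenylated RNA was sequenced from whole microdissected amygdala and hippocampus of adult male mice, to ask how loss of an H3K4 methyltransferase (KMT2A, the writer) and of an H3K4 demethylase (KDM5C, the eraser) alter expression singly and together. All animals were F1 offspring from crosses of *Kmt2a*+/- fathers (129S1/SvImJ) with *Kdm5c*+/- mothers (C57BL/6J). The 4 genotypes were wildtype (WT, *Kmt2a*+/+ with an intact *Kdm5c* on the X chromosome), *Kmt2a*-HET (labelled 2a-HET, *Kmt2a*+/-), *Kdm5c*-KO (labelled 5c-KO, *Kdm5c*-/y) and the double mutant (DM, *Kmt2a*+/- with *Kdm5c*-/y), each with 4 mice. Both regions came from the same 16 mice. The mutant *Kmt2a* allele was derived from a floxed line crossed to mice with a tamoxifen-inducible Cre at the *Rosa26* locus, and neither mutation was directed to microglia. The labels name no treatment. In tissue pieces such as these, fewer microglia and less RNA per microglial cell cannot be told apart.

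Microglia are the resident macrophages of the brain. They depend on signalling through CSF1R, the receptor of CSF1 and IL34, survey the tissue with processes that are guided by the purine receptor P2RY12, and receive the neuronal chemokine CX3CL1 through CX3CR1. They are the main source of C1q in the brain, whose A, B and C chains assemble into the molecule that opens the classical complement cascade and that tags synapses for removal, and TREM2 and the lysosomal protease cathepsin S serve in uptake and degradation. TMEM119 is a surface protein used to distinguish microglia from other macrophages.

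The 3 C1q genes lie side by side on the minus strand of chromosome 4 (mm10), with *C1qb* at chr4:136880129-136886187, *C1qc* at chr4:136889804-136893065 and *C1qa* at chr4:136895917-136898803. *Cx3cr1* is annotated at chr9:119901616-120069879 (minus strand), a span that holds other genes, of which *Gorasp1*, *Csrnp1* and *Xirp1* lie on its own strand. *P2ry12* is at chr3:59216272-59262871 (minus strand) inside *Med12l*, which is read from the other strand. *Tmem119* is at chr5:113793729-113800516 (minus strand), *Ctss* at chr3:95526786-95556403 (plus strand, over the pseudogene *Hmgb1-ps5*) and *Trem2* at chr17:48346401-48354147 (plus strand). The libraries were directional, but the setting with which strand was counted is not given in the sources used here, so counts of the overlapped genes may include reads of their neighbours.

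Promoter windows are shown for *C1qb*, *C1qc*, *Ctss* and *Trem2*, because these genes rose and fell together between libraries. RefSeq windows (GRCm38.p6) from 250 bases before to 50 after the start site were at hand for 6 of the 9 genes, and for *C1qa*, *Csf1r* and *Tmem119* there was none in the table. The letters GAGGAA, a core bound by the myeloid factor PU.1 (*Spi1*), were searched on both strands and are in capitals, so that a match on the other strand reads TTCCTC. The windows are chr4:136886151-136886450 (*C1qb*, minus strand), chr4:136892865-136893164 (*C1qc*, minus strand), chr3:95526536-95526835 (*Ctss*, plus strand) and chr17:48346151-48346450 (*Trem2*, plus strand).
C1qb: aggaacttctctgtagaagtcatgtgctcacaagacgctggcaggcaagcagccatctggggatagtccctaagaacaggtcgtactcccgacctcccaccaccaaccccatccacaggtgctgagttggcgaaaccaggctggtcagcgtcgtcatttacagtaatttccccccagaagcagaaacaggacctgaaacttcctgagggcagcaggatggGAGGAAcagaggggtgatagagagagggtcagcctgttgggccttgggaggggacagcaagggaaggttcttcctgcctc
C1qc: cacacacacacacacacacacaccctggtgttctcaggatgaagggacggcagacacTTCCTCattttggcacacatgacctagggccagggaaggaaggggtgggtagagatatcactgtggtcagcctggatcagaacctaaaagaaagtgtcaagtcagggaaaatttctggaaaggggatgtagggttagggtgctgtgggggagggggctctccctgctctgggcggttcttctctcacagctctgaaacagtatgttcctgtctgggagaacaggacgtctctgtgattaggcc
Ctss: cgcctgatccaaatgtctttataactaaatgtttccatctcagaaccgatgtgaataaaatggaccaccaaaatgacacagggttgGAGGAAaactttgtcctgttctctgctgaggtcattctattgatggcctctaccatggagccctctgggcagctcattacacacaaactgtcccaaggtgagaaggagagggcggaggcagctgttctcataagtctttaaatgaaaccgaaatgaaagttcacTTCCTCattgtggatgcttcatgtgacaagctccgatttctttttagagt
Trem2: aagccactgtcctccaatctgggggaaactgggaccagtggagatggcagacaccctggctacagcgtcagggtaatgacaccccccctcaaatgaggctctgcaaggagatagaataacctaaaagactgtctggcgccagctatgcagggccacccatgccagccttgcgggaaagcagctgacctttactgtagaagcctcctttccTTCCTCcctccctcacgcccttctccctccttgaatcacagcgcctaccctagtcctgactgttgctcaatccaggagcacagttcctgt

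The match began 30 bases before the start site in *C1qb*, at -40 in *Trem2* and at -193 in *C1qc*, while *Ctss* held 2, at -164 and at the start site itself. The windows of *Cx3cr1* and *P2ry12* held none. Of all 32851 promoter windows 28.3% held these letters, so that a match is common. The longer AGGAAGT, which shares its first letters with GAGGAA where a G precedes it, was in *C1qb*, *C1qc*, *Ctss* and *P2ry12* and in 9.35% of all windows.

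Amygdala libraries held 19215503 to 26033615 gene counts and hippocampal libraries 19322262 to 27798980, so that 3 counts, the floor used for a gene at 0, are at most 0.156 CPM (counting error only). *Kdm5c* counts were 1225 to 1434 in the 8 amygdala libraries with the mutant *Kdm5c* allele against 1227 to 2026 in the other 8. Hippocampal libraries held 1145 to 1430 against 1426 to 1888. *Kmt2a* counts did not separate the 2 allele states (amygdala, 3008 to 5371 with the mutant allele and 2163 to 5639 without). Counts of whole genes include exons that the mutations leave in place, so they check the labels only in part. Libraries also differed in the length of the genes they sampled. The mean annotated exon length behind a count ranged from 5527 bases in WT amygdala 1 to 6829 bases, and in all 8 groups the library numbered 1 was the shortest.

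Levels between genes were compared per length, as TPM, a unit that divides counts by transcript length and library total. In the WT amygdala *C1qa* stood at 94.3 ± 21.2 TPM (SD, n = 4), *C1qb* at 78.8 ± 20.1 and *C1qc* at 66.3 ± 13.5. *Csf1r* (72.8 ± 10.7) and *Ctss* (71.5 ± 14.7) lay between *C1qb* and *C1qc*. The SD is a spread between mice and does not rank genes measured in the same libraries. In each WT amygdala library *C1qa* was above *C1qb* and *C1qb* above *C1qc*. They were at 119.7, 107.7 and 85.63 TPM in WT 1, and at 70.7, 61.05 and 54.44 TPM in WT 4. The next genes were *P2ry12* (35.2 ± 10.7), *Cx3cr1* (33.1 ± 2.46) and *Tmem119* (30.9 ± 7.92), and their order differed between libraries. *P2ry12* was at 50.65 and *Cx3cr1* at 33.44 TPM in WT 1, against 26.24 and 34.66 TPM in WT 4. *Trem2* was lowest on average at 23.6 ± 7.96 TPM. The same 5 genes were the highest in the WT hippocampus, from 80.4 ± 12.2 for *C1qa* to 56.3 ± 6.0 TPM for *C1qc*, and *Trem2* was again lowest (19.9 ± 4.37). Summed over the 9 genes, WT amygdala libraries held 318 to 548 CPM and WT hippocampal libraries 283 to 377 CPM.

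*C1qa* and *C1qb* have only 1 annotated transcript in the table, and of several, 1 took 99.0% of *Cx3cr1* and 93.8% of *Ctss* in the WT amygdala. *Csf1r* was divided into 84.9 and 15.1% between a 3870-base and a 4701-base transcript. *P2ry12* was divided over 5 transcripts, the largest with 64.6%, and *Trem2* had 74.2% on a 1088-base coding transcript and 14.7% on a retained-intron form of 4784 bases. Shares between transcripts of a gene are estimates by the method that made the tables, since such transcripts share most of their sequence.

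None of the 9 genes passed the test in a comparison of a mutant with WT. In each region the 3 mutants were compared with WT by the DESeq2 Wald test (Benjamini-Hochberg adjusted over all genes, threshold 0.1), and 0 of 9 members passed in any of the 6 comparisons. Over all tested genes, the share called in the amygdala was 0.00988% for *Kmt2a*-HET, 0.751% for *Kdm5c*-KO and 0.966% for DM. The hippocampal shares were 0%, 1.01% and 0.875% in the same order. At an unadjusted *p* under 0.05, 3 of the 54 tests passed, all for *Cx3cr1*. Of 30355 genes in the amygdala, 926 (*Kmt2a*-HET), 1165 (*Kdm5c*-KO) and 1474 (DM) passed the same cut. Of 29841 in the hippocampus, 715, 1657 and 1590 did in that order. The edgeR quasi-likelihood test also called 0 of 54 (0 to 0.507% of all genes). Of the 54 intervals of 95% confidence, 54 lay inside a 2-fold change in either direction, the outermost bounds being -0.71 and 0.58 on the log2 scale. The distance from an estimate to its bound was 0.21 to 0.50, with a median of 0.34, so that changes within these bounds are left undecided for the single genes.

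**Figure D1:**
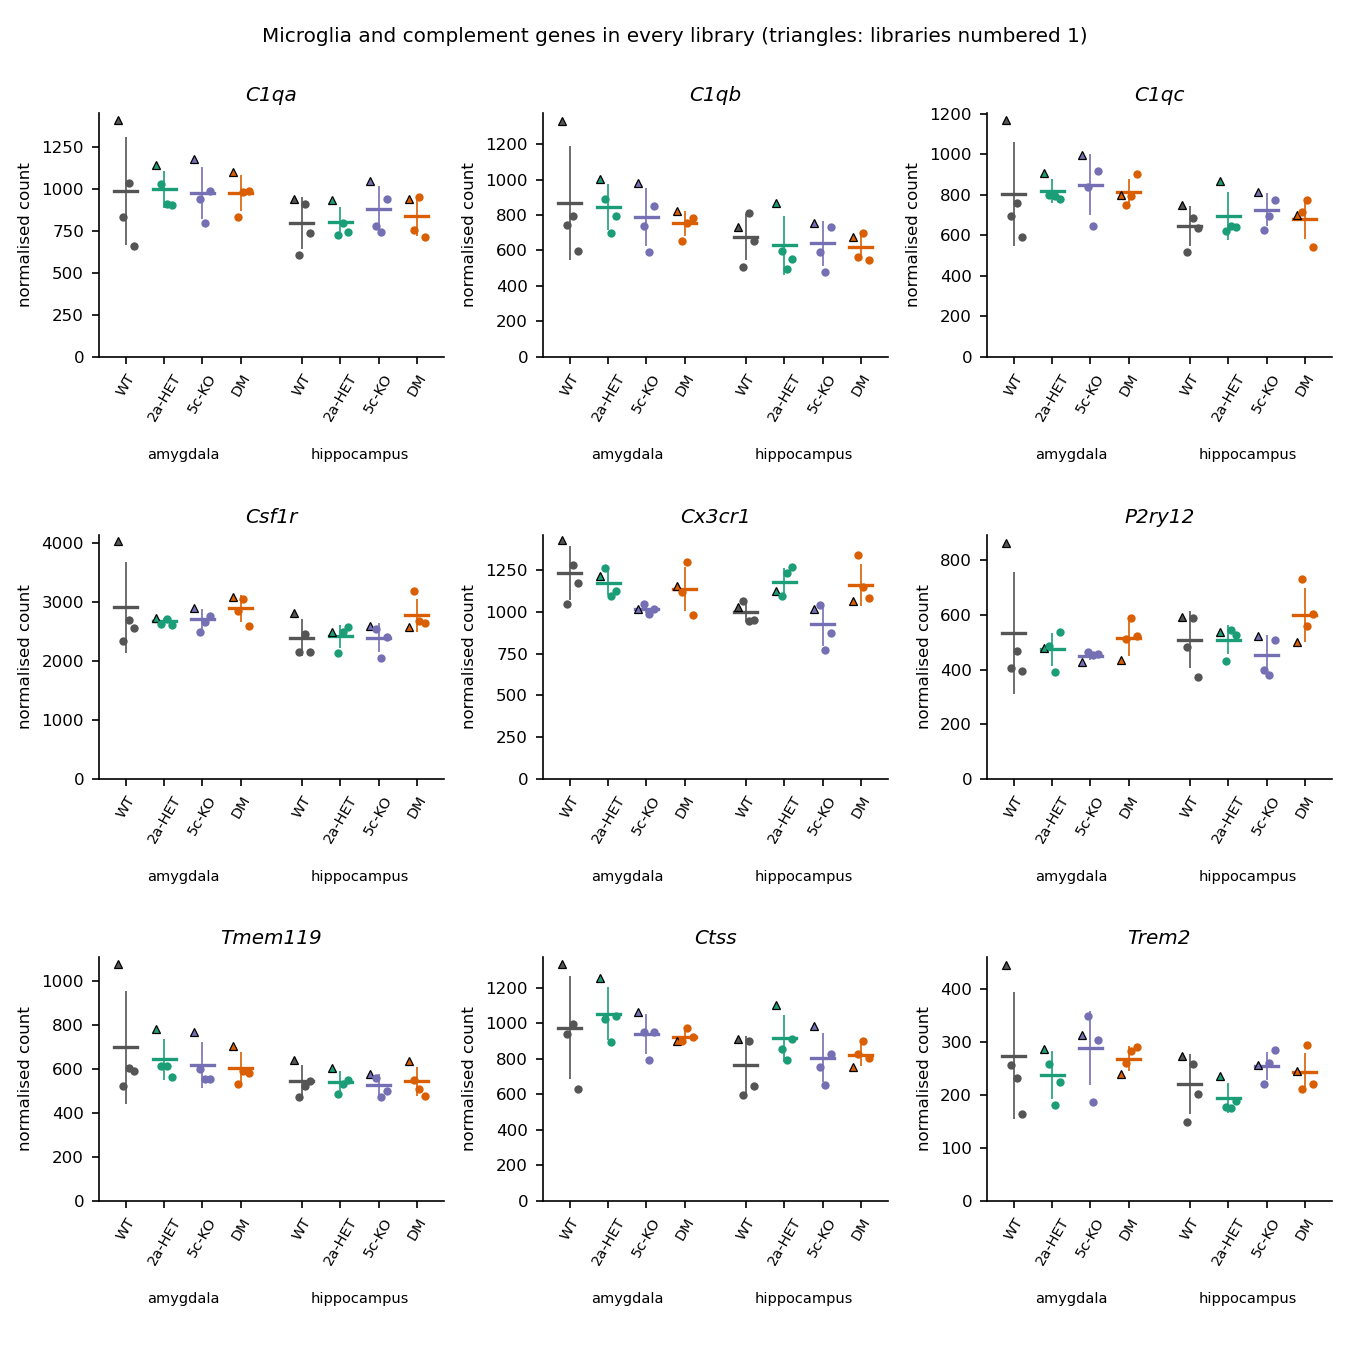
Normalised counts (y axis, DESeq2 size factors within a region) of the 9 genes in each of the 32 libraries, by genotype and region. Points are libraries, triangles are those numbered 1, horizontal lines are group means and vertical lines are ± SD (n = 4). WT amygdala 1 is the highest library of its group in all 9 panels.

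The C1q genes overlapped between the genotypes. *C1qa* counts, normalised with size factors from all genes of the region, were 1415, 835, 1040 and 663 in the 4 WT amygdala libraries and 1180, 944, 799 and 991 in *Kdm5c*-KO. In *Kmt2a*-HET they were 1143, 1033, 912 and 906, and in DM 1103, 836, 982 and 987. The WT range held all mutant libraries, and the 3 log2 fold changes lay between -0.02 and 0.02 with SE of 0.19. In the hippocampus *C1qa* was at 944, 609, 911 and 736 in WT, against 1050, 783, 746 and 943 in *Kdm5c*-KO, which gave the largest *C1qa* change (0.14 ± 0.16 SE, adjusted *p* = 0.956 by DESeq2). *C1qb* was lower than WT in each of the 6 comparisons (log2 -0.21 to -0.03) and *C1qc* higher in each (0.01 to 0.17), with 0.921 as the lowest adjusted *p*. Genotypes overlapped for both genes wherever they were compared with WT. The comparisons of a region share their WT libraries, so that a common direction is not repeated evidence.

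*Csf1r* (chr18:61100598-61132149, plus strand, overlapping *Hmgxb3* and *Mir6983*), needed for microglial survival, was the most counted member. Its normalised counts were 4035, 2329, 2695 and 2560 in WT amygdala and 2591 to 3090 in DM. In the hippocampus they were 2817, 2155, 2452 and 2144 in WT and 2571, 3188, 2680 and 2646 in DM, so that the ranges overlapped through WT 1 alone. The log2 fold change of DM was 0.21 ± 0.11 (SE, adjusted *p* = 0.657 by DESeq2), with an interval of -0.01 to 0.43, and the other 5 comparisons with WT lay between -0.12 and 0.02.

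*Cx3cr1*, the fractalkine receptor gene, gave the smallest *p*-values among the 9 genes. In the amygdala its counts were 1429, 1046, 1285 and 1173 in WT and 1019, 1048, 987 and 1019 in *Kdm5c*-KO. The 2 groups overlapped only by WT 2 and *Kdm5c*-KO 2, and the log2 fold change was -0.28 ± 0.11 (SE, adjusted *p* = 0.465 by DESeq2). Without WT amygdala 2 the change was -0.35 with an adjusted *p* of 0.0734 by DESeq2. Over all single omissions the adjusted *p* ran from 0.0734 to 0.997, and no other omission gave a call. *Kmt2a*-HET (1098 to 1262) and DM (981 to 1299) overlapped with WT.

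In the hippocampus the order was another. *Cx3cr1* counts were 1033, 1063, 944 and 952 in WT and 1018, 1044, 770 and 876 in *Kdm5c*-KO, against 1127, 1099, 1236 and 1270 in *Kmt2a*-HET and 1064, 1341, 1151 and 1084 in DM. All 8 libraries with the mutant *Kmt2a* allele lay above all 8 without it, although the closest pair, 1064 and 1063, hardly differed. Of 13145 genes with a mean of at least 50 normalised counts, 0.0304% were separated in this way in either direction. Neither *Kmt2a*-HET (0.25 ± 0.11 SE, adjusted *p* = 1) nor DM (0.22 ± 0.11 SE, adjusted *p* = 0.625) was called against WT by DESeq2.

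The 2 *Kmt2a* states were therefore also compared 8 against 8 in the same fit, a contrast added after the values were seen. Here *Cx3cr1* was higher by 0.28 ± 0.08 on the log2 scale (SE, fold of 1.22 with an interval of 1.10 to 1.35), with an adjusted *p* of 0.124 by DESeq2, just outside the threshold that 0.113% of tested genes passed. With the replicate number as a block the adjusted *p* was 0.0496 (0.596% of genes called), while edgeR gave 0.59 without the block and 0.397 with it. Leaving out single libraries moved the adjusted *p* between 0.025 (without *Kdm5c*-KO 2) and 0.785 (without WT 4), and it was also under the threshold without WT 2 (0.0412), *Kmt2a*-HET 3 (0.0977) or DM 1 (0.0652). In the amygdala the same contrast gave 0.05 ± 0.08 (SE, interval -0.10 to 0.19). None of the other 8 genes was called in the *Kmt2a* contrast of either region, where 0% of genes were called in the amygdala. In the corresponding *Kdm5c* contrast 0 of 9 members passed, while 1.65% (amygdala) and 2.39% (hippocampus) of all genes did. The smallest *p*-values there were those of *Cx3cr1* in the amygdala (-0.16 ± 0.08 SE, adjusted *p* = 0.564 by DESeq2) and *Trem2* in the hippocampus (0.27 ± 0.13 SE, adjusted *p* = 0.465).

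*P2ry12*, the purine receptor gene, had counts of 865, 407, 467 and 394 in WT amygdala, of which the first was above every other amygdala library. *Kdm5c*-KO libraries held 429 to 465, and the change was -0.24 ± 0.21 (SE, adjusted *p* = 1 by DESeq2). In the hippocampus *P2ry12* was at 594, 483, 591 and 371 in WT and 524, 397, 379 and 507 in *Kdm5c*-KO, with 499, 733, 560 and 603 for DM. DM and *Kdm5c*-KO differed by 0.41 ± 0.17 (SE, adjusted *p* = 1 by DESeq2) and overlapped through DM 1, *Kdm5c*-KO 1 and *Kdm5c*-KO 4. In this comparison, where 0.0067% of all genes passed, *Cx3cr1* was the other member with an unadjusted *p* under 0.05 (0.32 ± 0.11 SE, adjusted *p* = 0.757 by DESeq2), with no overlap between the groups (4.17% of genes with a mean of at least 50). An unadjusted *p* under 0.05 was reached by 1352 of 29841 genes here.

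*Tmem119*, *Ctss* and *Trem2* showed no call either. *Tmem119* was at 1075, 519, 602 and 588 in WT amygdala and at 471 to 640 in all hippocampal libraries, and its 6 changes against WT were all below 0 (-0.21 to -0.01). *Ctss*, which encodes cathepsin S, had its largest change in the *Kmt2a*-HET hippocampus, with 1101, 853, 792 and 912 against 913, 595, 898 and 645 in WT (0.26 ± 0.16 SE, adjusted *p* = 1 by DESeq2). *Trem2*, the least abundant, was at 445, 256, 231 and 164 in WT amygdala, a range that held all 12 mutant libraries of the region. Its largest change was -0.21 in the *Kmt2a*-HET amygdala, with the widest interval of all, -0.71 to 0.29.

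**Figure D2:**
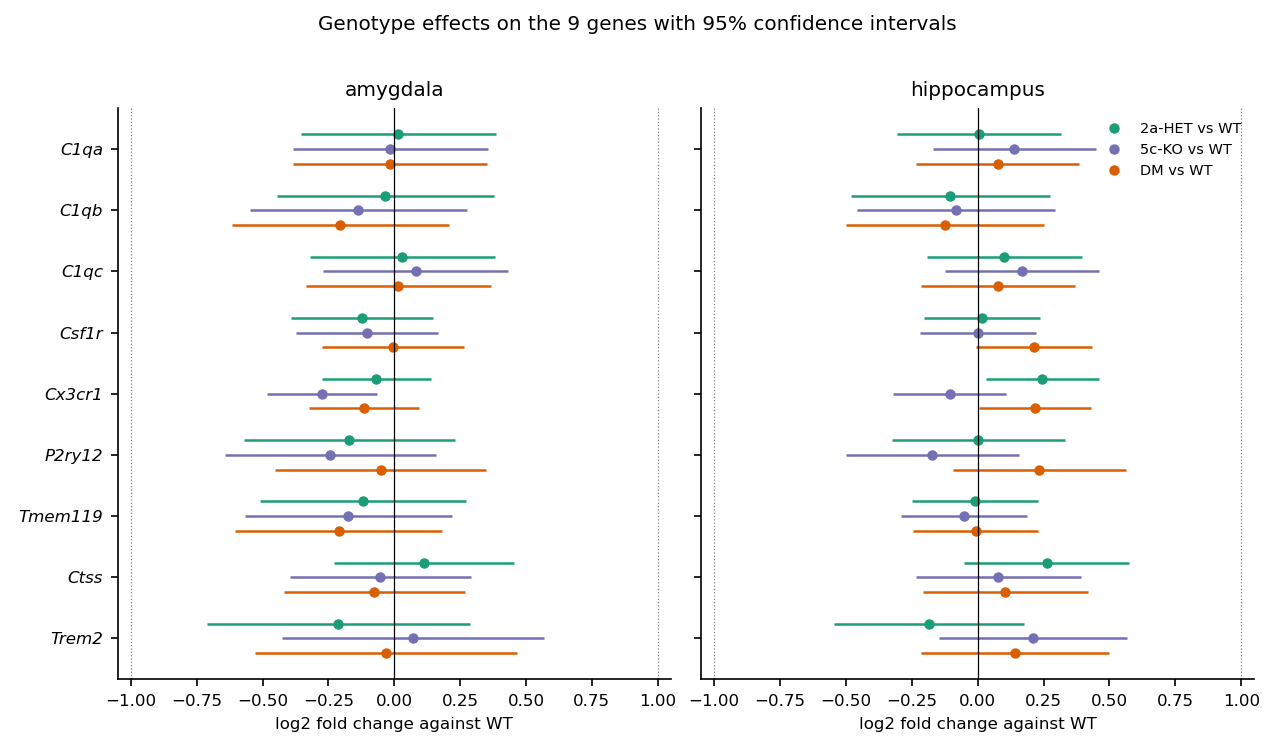
Log2 fold change of each gene against WT (x axis) with 95% confidence intervals, for the 3 mutants (colours) in the amygdala and the hippocampus. The 54 intervals lie between -0.71 and 0.58, inside the dotted lines at a 2-fold change, and 3 of them, all of *Cx3cr1*, leave out 0.

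DM was then set against either single mutant and tested for a departure from the sum of the single changes. Again 0 of 9 members passed in any of these comparisons. Of all genes 0.00329% passed for DM against *Kdm5c*-KO in the amygdala and 0.845% for DM against *Kmt2a*-HET there, and 0.603% for the latter in the hippocampus. The departure from the sum was called for 0.00329% (amygdala) and 0% (hippocampus) of genes. The largest departures among members were those of *P2ry12*, 0.36 ± 0.29 (SE, amygdala) and 0.40 ± 0.24 (hippocampus, adjusted *p* = 1 in both by DESeq2), and the former fell to 0.024 without WT amygdala 1. At an unadjusted *p* under 0.05 no member passed in either region, against 857 of 30355 genes (amygdala) and 571 of 29841 (hippocampus).

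Between libraries of 1 genotype the 36 pairs of the 9 genes correlated at 0.43 to 0.96 in the amygdala and at -0.35 to 0.87 in the hippocampus. Deviations of log2 counts from the group mean were correlated over the 16 libraries of a region, as a description, since these points share depth and library composition. *C1qa*, *C1qb* and *C1qc* correlated at 0.92 to 0.96 (amygdala) and 0.81 to 0.87 (hippocampus). *Ctss* and *Trem2* joined them, with a median *r* of 0.90 and 0.81 over the 10 pairs of the 5 genes. *Csf1r*, *Cx3cr1*, *P2ry12* and *Tmem119* followed each other less closely, with medians of 0.68 and 0.53 over 6 pairs. This division was made after the values were seen, and *Tmem119* does not keep to it. With the C1q genes it correlated at 0.79 to 0.84 (amygdala) and 0.55 to 0.66 (hippocampus). Its *r* was 0.59 and 0.29 with *Cx3cr1*, 0.60 and 0.20 with *P2ry12*, and 0.86 and 0.60 with *Csf1r*. *Cx3cr1* stood farthest from the C1q genes, *Ctss* and *Trem2*, at 0.43 to 0.57 (amygdala) and -0.35 to 0.19 (hippocampus), and without the libraries numbered 1 its median *r* with them was 0.20 and -0.11.

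The mean level ran with the length of the genes sampled. The mean level of the 9 genes, as a *z* score, correlated with the mean exon length behind a count at -0.89 (amygdala) and -0.72 (hippocampus). With the number of genes detected in a library it correlated at -0.79 and -0.69, so that length is not the only library measure it ran with. For single genes *r* was strongest for *C1qa* (-0.94 and -0.89) and weak for *Cx3cr1* (-0.40 and 0.23) and *P2ry12* (-0.53 and -0.22). Over all genes with a mean of at least 50 normalised counts, the lowest 5% of *r* lay below -0.87 (amygdala) and -0.80 (hippocampus) and the highest 5% above 0.89 and 0.85, so that the 3 C1q genes were among the lowest 5% in both. With the length term removed, the 5 genes around C1q still correlated at medians of 0.64 and 0.54, and *Csf1r*, *Cx3cr1*, *P2ry12* and *Tmem119* at 0.61 and 0.61, while the median between the 2 sets went from 0.67 to 0.18 (amygdala) and from 0.40 to 0.25 (hippocampus). With this length as a covariate in the genotype fits, added after the data were seen, 0 members were called in any of the 6 comparisons with WT, where 0.132 to 1.9% of all genes were.

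The genes whose pattern was most like that of the 9 differed between regions. In the amygdala they were *Rtf2* (*r* = 0.98 with the mean *z* score over 16 libraries), *Wdr45b* (0.95), *Snrpd1* (0.95), *Cfl1* (0.95) and *Arpc4* (0.94), genes of general cell function among which no microglia marker appears. In the hippocampus they were *Lyrm4* (0.90), *Fes* (0.89), *Selplg* (0.89), the mitochondrial *mt-Cytb* (0.89) and *Lag3* (0.88). *Selplg* is on the fixed list of other microglia genes, and the cell types of the remaining genes were not examined. The summed level of 34 other microglia genes followed the 9 at *r* = 0.98 and 0.77. Blood genes, at 586 CPM in WT amygdala 1 against 355 CPM or less in the other amygdala libraries, followed at 0.70 (amygdala) and 0.25 (hippocampus), and their part was not tested.

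**Figure D3:**
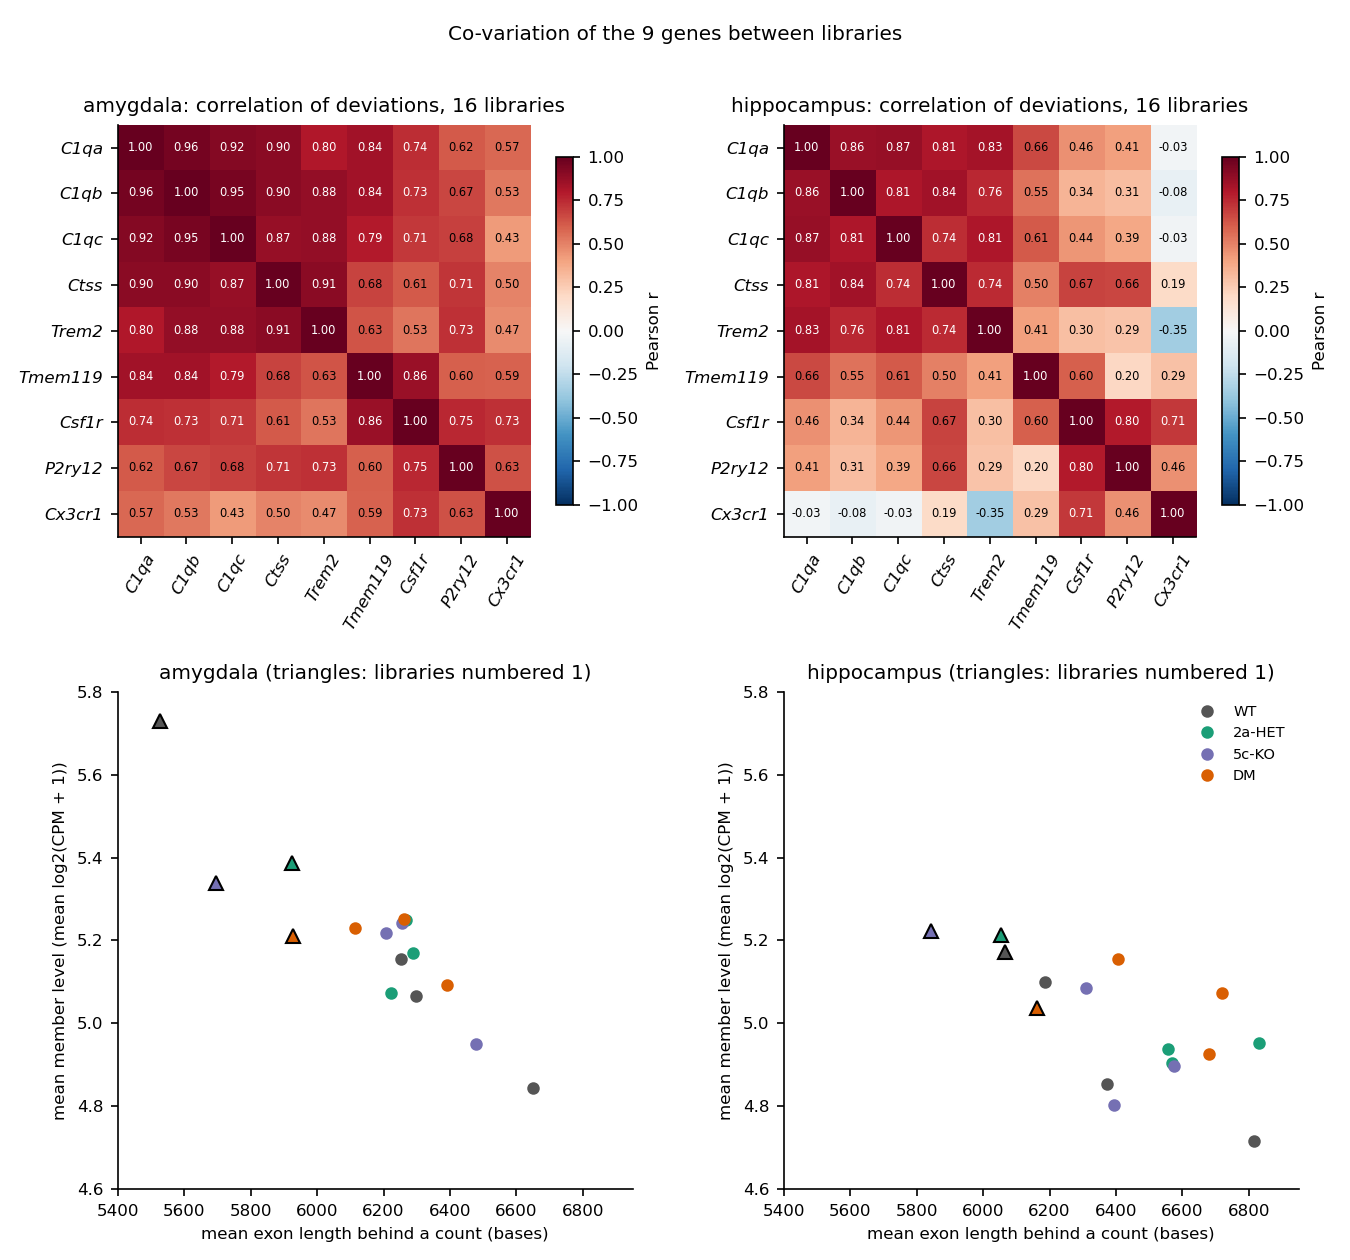
Top, Pearson *r* between the deviations of each pair of genes from their group means over 16 libraries of the amygdala (left) and hippocampus (right). Bottom, mean member level (mean of log2(CPM + 1) over the 9 genes, y axis) against the mean exon length behind a count in bases (x axis), with colours for genotype and triangles for libraries numbered 1, which lie at the short end of each group. *Cx3cr1* has *r* of -0.35 to 0.19 with the C1q genes, *Ctss* and *Trem2* in the hippocampus.

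WT amygdala 1 decided much of the spread. It was the highest of its group for 9 of 9 members, against 39.9% of all genes with a mean of at least 50, and had the shortest mean exon length of all 32 libraries. Libraries numbered 1 were the highest for 7 of 9 members in *Kmt2a*-HET amygdala (34.8% of all such genes), 6 in *Kdm5c*-KO amygdala (34.7%) and 4 in DM amygdala (26.6%). Hippocampal libraries numbered 1 led for 7 members among WT mice (25.6%), 6 among *Kmt2a*-HET (32.2%), 7 among *Kdm5c*-KO (33.9%) and 1 of 9 among DM (35.0%). Without WT amygdala 1 the median change of the 9 genes turned from -0.07 to 0.17 in *Kmt2a*-HET, from -0.10 to 0.14 in *Kdm5c*-KO and, for DM amygdala, from -0.05 to 0.19, and still 0 members were called (0.0132 to 1.22% of all genes).

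The 9 genes were then compared between the 2 regions of the same mice. In WT mice 8 of 9 members were lower in the hippocampus (log2 -0.26 to -0.18) and *P2ry12* was at 0.03, with 0 of 9 called where 21.6% of all genes were. No member was called within *Kmt2a*-HET (30.2% of genes), within *Kdm5c*-KO (23.7%) or within DM (27.6%) mice either, and edgeR called 0 of 36, against 23.8 to 34.7% of all genes. With the mouse as a block, *Ctss* was called in WT (-0.24 ± 0.10 SE, adjusted *p* = 0.0733 by DESeq2, 23.4% of genes called) and *C1qb* in *Kmt2a*-HET (-0.36 ± 0.13 SE, adjusted *p* = 0.0307, 32.8%), and 0 of 9 in *Kdm5c*-KO (26.2%) and DM (30.6%). Whether the region difference itself depended on genotype was tested against WT, and 0 of 9 members passed for *Kmt2a*-HET (0% of genes), *Kdm5c*-KO (0.0125%) or DM (0.0125%). At an unadjusted *p* under 0.05 only *Cx3cr1* passed, in *Kmt2a*-HET (0.31 ± 0.15 SE) and DM (0.34 ± 0.15), each with an adjusted *p* of 1 by DESeq2. Of 32039 genes, 570 (*Kmt2a*-HET), 639 (*Kdm5c*-KO) and 646 (DM) passed the same cut.

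Over all 16 mice, a contrast added after the data were seen, *C1qb* was the 1 member called (-0.25 ± 0.10 SE, adjusted *p* = 0.0412 by DESeq2, 47% of genes called), and without WT amygdala 1 it was not (-0.18, adjusted *p* = 0.11), while *P2ry12* then was (0.24, adjusted *p* = 0.00354). With the mouse as a block 6 of 9 were called, against 47.6% of all genes. *C1qb* was lower in the hippocampus of 14 of 16 mice (-0.24 ± 0.07 SE, adjusted *p* = 0.00102), *Ctss* of 15 (-0.14 ± 0.05, 0.0118), *C1qa* of 13 (-0.14 ± 0.05, 0.0185), *Tmem119* of 13 (-0.13 ± 0.06, 0.0386) and *C1qc* of 11 (-0.16 ± 0.07, 0.0423). *P2ry12* went the other way, higher in the hippocampus of 11 of 16 mice (0.17 ± 0.08 SE, adjusted *p* = 0.0574). *Csf1r* (-0.07, lower in 12 mice), *Cx3cr1* (-0.01, lower in 9) and *Trem2* (-0.11, lower in 10) were not called. With so large a share of all genes called, the 6 calls are no result about the members as a list.

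The length of the genes sampled, a measure taken from the same counts, was greater in the hippocampus than in the amygdala for most mice. With the library length covariate beside the mouse block, 0 of 9 members were called, where 40.7% of all genes were, and the changes of *C1qa*, *C1qb* and *Ctss* were 0.00, -0.02 and -0.02. *P2ry12* did not shrink with the covariate, at 0.21 ± 0.11 (SE, adjusted *p* = 0.142), and lost its call with a wider error. With the covariate and no mouse block, *P2ry12* was the 1 member called (0.25 ± 0.10 SE, adjusted *p* = 0.0217, 48% of genes called). In DM mice, the *P2ry12* ratio of hippocampus to amygdala was 0.31, 0.61, 0.02 and 0.32 on the log2 scale, above 0 in 4 of 4. In WT mice it was -0.43, 0.34, 0.42 and 0.00, the lowest being the mouse of WT amygdala 1. It was above 0 in 3 of 4 *Kmt2a*-HET mice and 2 of 4 *Kdm5c*-KO mice, and no mutant was called for a region difference other than that of WT. With size factors from the spike-in RNA all genes shifted up in the hippocampus by a median of 0.64, and the members' median moved by 0.625, from -0.14 to 0.48. The members therefore moved with all genes, and their direction between regions is relative to the scale.

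**Figure D4:**
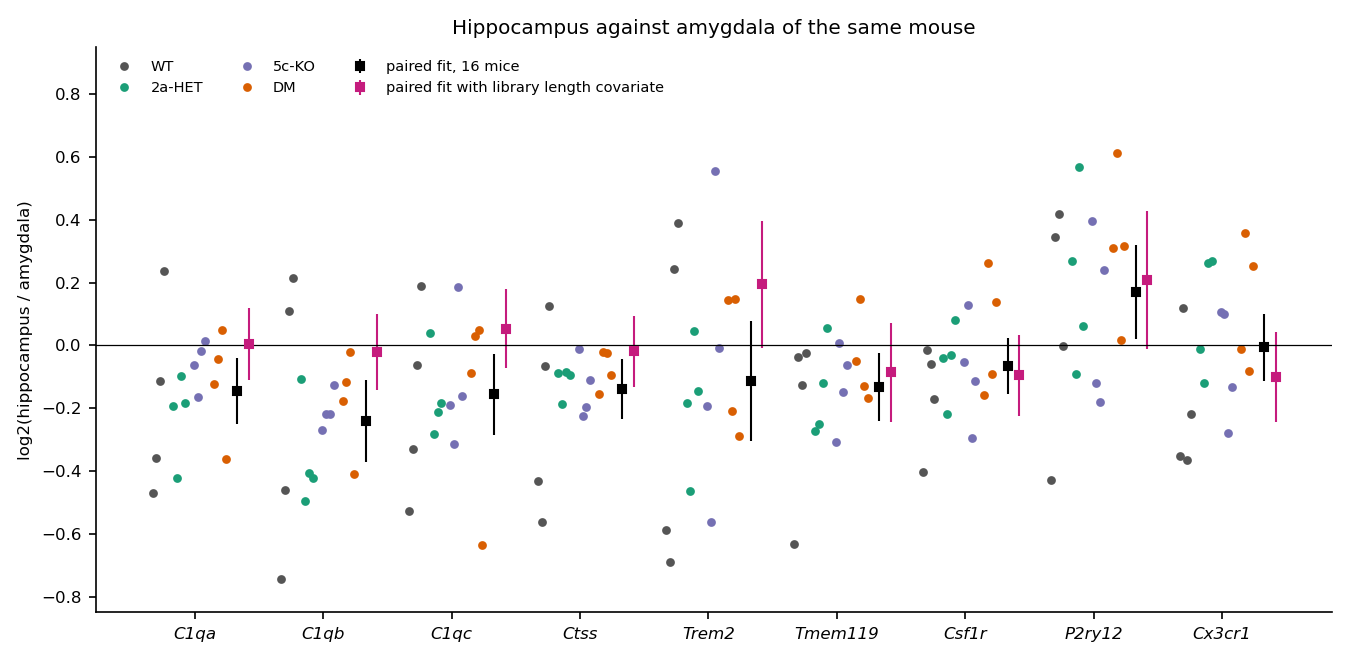
Log2 ratio of normalised counts in hippocampus over amygdala of the same mouse (y axis) for the 9 genes, with 1 point per mouse coloured by genotype. Squares with bars are the fitted mean over genotypes with its 95% confidence interval, with the mouse as a block (black) and with the library length covariate added (magenta). *C1qb* moves from -0.24 to -0.02 between the 2 fits and *P2ry12* from 0.17 to 0.21.

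The regions differed in other cells and in partners of these genes. *Cd200*, the neuronal ligand that restrains microglia, was lower in the hippocampus of WT mice (-0.73 ± 0.11 SE, adjusted *p* = 1.06e-09 by DESeq2) and of the other genotypes (-0.94 to -0.81). *Cx3cl1*, the ligand of CX3CR1, was higher over all genotypes (0.27 ± 0.06 SE, adjusted *p* = 8.74e-05). Of 18 genes of lysosomal proteases and antigen presentation, 7 fell and 0 rose in WT hippocampus, where 21.6% of all genes were called, among them *Cd74* (-1.72 ± 0.37 SE) and *Lgmn* (-0.30 ± 0.09). Of 10 markers of border macrophages 2 fell in WT, a share close to that of all genes, and their summed level was 7.95 to 15.8 CPM in WT hippocampus against 12.4 to 19.2 CPM in the amygdala. The GABAergic markers *Slc32a1* (-1.58 ± 0.18 SE) and *Gad2* (-1.66 ± 0.19) had the smallest adjusted *p* of all lists in WT, *Gad1* was lower by less (-0.76 ± 0.14 in WT and -1.15 ± 0.14 in DM), and the summed neuronal markers were 4472 to 4925 CPM in WT amygdala and 5550 to 6132 CPM in WT hippocampus. The part of such tissue composition in the members' values was not tested.

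Single genes of related lists passed the test in mice without *Kdm5c*. The lists held 34 other microglia genes, 36 other complement genes, 24 genes of disease-associated microglia and 16 ligands and receptors. In the order of these lists, 1 of 34, 0 of 36, 1 of 24 and 0 of 16 rose in *Kdm5c*-KO amygdala, and 2, 1, 0 and 0 in *Kdm5c*-KO hippocampus, where 0.751% and 1.01% of all genes were called in either direction. DM amygdala had 1, 1, 1 and 0 (0.966% of all genes), and DM hippocampus 2, 1, 1 and 0 (0.875%). Counts of 0 to 2 genes in a list are not a result about the list. None of them fell, and in *Kmt2a*-HET none of any list passed in either region. The median change of the 34 microglia genes lay between -0.04 and 0.21 on the log2 scale over the 6 comparisons, and that of all tested genes between -0.01 and 0.00.

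*Siglech*, a sialic acid-binding lectin of microglia, rose in both genotypes without *Kdm5c* and in both regions. Its normalised counts in the amygdala were 267, 164, 209 and 213 in WT and 195, 190, 232 and 208 in *Kmt2a*-HET. They were 317, 328, 278 and 337 in *Kdm5c*-KO, with 291, 340, 365 and 300 for DM. In the hippocampus the 8 libraries with intact *Kdm5c* held 172 to 205, *Kdm5c*-KO 310, 315, 228 and 273, and DM 320, 351, 309 and 294. In neither region did a library without *Kdm5c* overlap with one that had it, as was so for 0.387% (amygdala) and 0.380% (hippocampus) of genes with a mean of at least 50. The log2 fold changes against WT were 0.56 ± 0.14 in *Kdm5c*-KO amygdala (SE, adjusted *p* = 0.0204 by DESeq2), 0.60 ± 0.14 in DM amygdala (0.00689), 0.59 ± 0.12 in *Kdm5c*-KO hippocampus (0.000706) and 0.77 ± 0.12 in DM hippocampus (3.7e-07). By edgeR the first of these was not called (adjusted *p* = 0.138), nor was it by DESeq2 without WT 3 (0.126), *Kdm5c*-KO 2 (0.18) or *Kdm5c*-KO 4 (0.134). DM also exceeded *Kmt2a*-HET in both regions (0.65 and 0.73) and did not pass against *Kdm5c*-KO (0.04 ± 0.14 and 0.18 ± 0.12).

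Other genes rose in 1 region or with a lower margin. *Slc2a5*, a fructose transporter of microglia, was at 66.4, 69.0, 57.3 and 61.1 in WT hippocampus, 120, 95.5, 90.0 and 115 in *Kdm5c*-KO, with 113, 123, 99.9 and 103 for DM and no overlap with WT, against 3.93% and 4.83% of genes with a mean of at least 50 (0.73 ± 0.18 SE, adjusted *p* = 0.0193, and 0.79 ± 0.18, 0.00463, by DESeq2). For *Kdm5c*-KO edgeR gave an adjusted *p* of 0.11, and without *Kdm5c*-KO 1 DESeq2 gave 0.138. *Kmt2a*-HET hippocampus held 60.3, 69.0, 87.6 and 96.9, which overlapped with both WT and *Kdm5c*-KO, and DM was not called against it (adjusted *p* = 0.447). In the amygdala *Slc2a5* was not called (0.33 ± 0.21 SE in *Kdm5c*-KO and 0.39 ± 0.20 in DM, the lower adjusted *p* being 0.756). *Ctsz*, the gene of cathepsin Z, stood at 1016, 852, 840 and 843 in WT amygdala, 1609, 1165, 1148 and 1218 in *Kdm5c*-KO, with 1540, 1318, 1445 and 1220 for DM, again without overlap with WT, against 2.11% and 2.84% of genes (0.53 ± 0.12 SE, adjusted *p* = 0.00441, and 0.64 ± 0.12, 0.000169). In the hippocampus its changes were 0.37 ± 0.14 and 0.46 ± 0.14, with adjusted *p* of 0.349 and 0.131. The difference between the regions was not tested for these genes. In the added 8-against-8 *Kdm5c* contrast, the MHC class II gene *H2-Aa* fell in the amygdala (-1.18 ± 0.26 SE, adjusted *p* = 0.00118). With spike-in size factors none of the *Siglech*, *Slc2a5*, *Ctsz* or *C4b* changes against WT was called, although each stayed above 0. Calls over all genes fell as well. In the amygdala they went from 144 to 22 (*Kdm5c*-KO) and from 208 to 7 (DM). In the hippocampus they went from 196 to 17 and from 170 to 6.

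The complement gene *C4b*, part of the classical cascade that C1q opens, rose in DM amygdala (0.69 ± 0.17 SE, adjusted *p* = 0.0134 by DESeq2) and in the hippocampus of *Kdm5c*-KO (0.81 ± 0.24, 0.0783) and DM (1.01 ± 0.24, 0.00621). Its counts were 963, 977, 741 and 575 in WT hippocampus, 2272, 1158, 1199 and 1081 in *Kdm5c*-KO, with 1309, 1253, 1999 and 2010 for DM. In *Kdm5c*-KO amygdala it was not called (0.53 ± 0.17 SE, adjusted *p* = 0.184). All 8 hippocampal libraries without *Kdm5c* lay above the 4 WT libraries (3.93% and 4.83% of genes did not overlap with WT in *Kdm5c*-KO and DM), but so did 3 of the 4 *Kmt2a*-HET libraries (1165, 1123, 1077 and 828). Against WT, *Kmt2a*-HET was at 0.37 ± 0.24 (SE) in the hippocampus and 0.40 ± 0.17 in the amygdala (adjusted *p* = 1 in both), and DM did not pass against *Kmt2a*-HET in either region (adjusted *p* = 0.438 and 0.885). The *Kdm5c*-KO call ended without *Kdm5c*-KO 1 (0.49, adjusted *p* = 0.583), *Kdm5c*-KO 3 (0.111), WT 3 (0.204) or WT 4 (0.356), and the DM amygdala call without DM 3 (0.56, adjusted *p* = 0.15). By edgeR none of the 3 was called (adjusted *p* = 0.113 to 0.303). *Kdm5c*-KO hippocampus 1 also held the most choroid plexus markers of all, 6836 CPM summed over 9 genes against 141 to 1499 CPM in WT hippocampus. In the amygdala, DM libraries held 140 to 2860 CPM of these markers and WT 121 to 204 CPM, and *Kl* (2.86 ± 0.66 SE) and *Kcnj13* (2.57 ± 0.60) passed there. Without DM amygdala 1 *Kl* was at 1.37, still called, and *Kcnj13* was not called (adjusted *p* = 0.456), and edgeR did not call *Kcnj13* either (adjusted *p* = 0.155). In DM hippocampus 4, 2010 normalised counts of *C4b* stood beside 3432 of *Kl*, but in DM hippocampus 3 1999 of *C4b* stood beside 506 of *Kl*. DM amygdala 1 held the lowest *C4b* of its group (1250) with the highest *Kl* (2735). The part of choroid plexus tissue in the *C4b* values was not tested. *C5ar2*, a receptor of complement fragments, passed in DM against *Kmt2a*-HET hippocampus (2.21 ± 0.53 SE, adjusted *p* = 0.00921), from 1.86 to 8.77 normalised counts in *Kmt2a*-HET to 19.4 to 32.1 in DM. Against WT (4.79 to 15.3) it was not called in DM (1.30 ± 0.47 SE, adjusted *p* = 0.293), and *Kmt2a*-HET lay below WT (-0.91 ± 0.56 SE, adjusted *p* = 1).

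**Figure D5:**
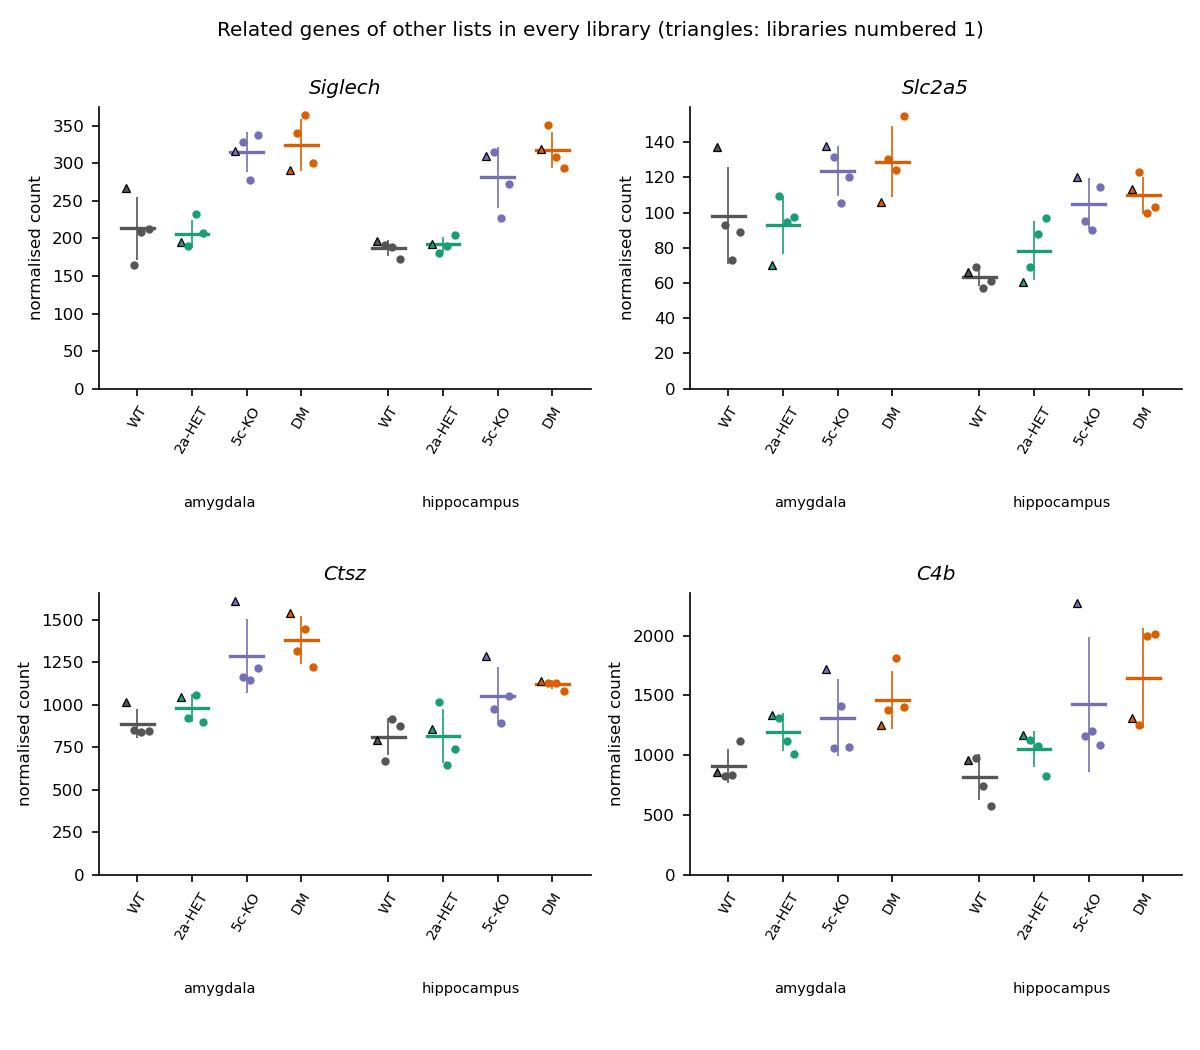
Normalised counts (y axis) of *Siglech*, *Slc2a5*, *Ctsz* and *C4b*, genes of the related lists, in each library by genotype and region. Points are libraries, triangles are those numbered 1, horizontal lines are group means and vertical lines are ± SD (n = 4). *Siglech* separates all *Kdm5c*-KO and DM libraries from all WT and *Kmt2a*-HET libraries in both regions.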

How the data were processed

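Reads were mapped by the authors to mm10 with STAR 2.5.3a, and their methods describe unique reads, removal of duplicates and FeatureCounts (Subread 1.5.0). The deposited gene and transcript tables hold expected counts, partly not whole numbers, and the estimator behind them is not given in the sources used here. Expected counts were rounded, and spike-in (ERCC) rows were left out of tests. Symbols, coordinates and lengths came from GENCODE M21. CPM used all gene counts, and TPM used the transcript tables with M21 lengths.

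Genes were tested with DESeq2 1.42.0 (R 4.3.3, Wald test) on all 16 libraries of a region with a genotype term, and regions on all 32 libraries in 8 groups. Calls were at a Benjamini-Hochberg adjusted *p* under 0.1 over all genes given an adjusted *p* by independent filtering, with *p* rounded first. Intervals are log2 fold change ± 1.96 SE. On simulated counts nearly all genes with a planted change were recovered, but the share of false calls lay above the nominal 10%. Adjusted *p*-values just under the threshold are therefore weaker than they read. The planted changes lay outside the intervals of the members against WT, so the recovery says nothing about smaller changes. Both regions of a mouse carry the same animal number in the labels, and deviations of same-mouse libraries correlated at a median of 0.17 (-0.09 to 0.45), against -0.08 for other mice of the genotype. The mouse was therefore also fitted as a block. The alternatives were edgeR 4.0.16 (quasi-likelihood, TMM), TMM and spike-in size factors, a filter of 10 counts in 4 libraries, a threshold of 0.05, a block for the replicate number, smaller fits and leaving out each library. The 8-against-8 contrasts, the mean over genotypes, the block with edgeR, the library length covariate and the omission of all libraries numbered 1 were chosen after seeing the data. The 9 members and all lists were chosen with earlier results of these data known.

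The text names all members, up to 3 genes of the other lists per comparison with the smallest adjusted *p* past the threshold, and per region the 5 other genes most like the members among those with a mean of at least 50 normalised counts. *Cd74*, *Lgmn*, *Cx3cl1* and, in DM amygdala, *Siglech* and *C4b* fall outside this rule and were named after their values were seen. Replicates are separate mice.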

Additional observations from a re-analysis of the deposited data

Results flagged for a closer look

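In each of the 8 groups of 4 libraries, the 9 genes and their mean level were examined for a library far from the other 3, by Dixon's test at the 95% level. Over 80 such examinations chance marks about 1 in 20, and 4 were found. *P2ry12* (865 normalised counts, the others 394 to 467) and *Tmem119* (1075, the others 519 to 602) stood apart in WT amygdala 1. *C1qc* (868, the others 621 to 643) and the mean member level (5.21, the others 4.91 to 4.95 on the log2(CPM + 1) scale) stood apart in *Kmt2a*-HET hippocampus 1. Both libraries are numbered 1 and have the shortest mean exon length of their groups, and the part of that length in these values was not tested. Without WT amygdala 1, *P2ry12* was higher in WT hippocampus than in the amygdala by 0.36 on the log2 scale (adjusted *p* = 0.0976 by DESeq2).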

How the results depend on the processing

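With each library left out in turn, the members called ranged from 0 to 1 for *Kdm5c*-KO against WT in the amygdala, for the *Kmt2a* contrast in the hippocampus and for the regions of WT and *Kmt2a*-HET mice (0.399 to 1.44%, 0 to 2.95%, 18.4 to 24.2% and 23.9 to 31% of all genes in that order), and from 1 to 4 for the region contrast over all genotypes, where 44.3 to 47.3% of all genes were called. The median member change ranged in the amygdala from -0.18 to 0.17 (*Kmt2a*-HET), -0.22 to 0.14 (*Kdm5c*-KO), -0.17 to 0.19 (DM) and -0.23 to 0.19 (departure from the sum), and for the region difference against WT from -0.16 to 0.19 (*Kmt2a*-HET), -0.15 to 0.20 (*Kdm5c*-KO) and -0.073 to 0.30 (DM).

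The *Kmt2a* contrast in the hippocampus had 1 call with the replicate number as a block or without all libraries numbered 1 (0.275% of all genes). Same-numbered libraries of different genotypes correlated at a median of 0.09 (amygdala) and 0.00 (hippocampus). For those numbered 1 the amygdala gave 0.23 to 0.47 and the hippocampus -0.07 to 0.33, and the labels name no shared batch. The block changed no other member's call. With the mouse as a block, the regions had 1 call in WT (1 with edgeR, 1 with the length covariate added, there *Cx3cr1*), 1 in *Kmt2a*-HET (2 with edgeR) and 6 over all genotypes (6 with edgeR, 59.4% of all genes, and 0 with the length covariate added, 40.7%). *Kmt2a*-HET had 1 without libraries numbered 1. DM had 1, *P2ry12*, with the length covariate or with its own 8 libraries alone. In these fits within a genotype 23.4 to 38.9% of all genes were called. Over all genotypes there were 2 with edgeR (56.8% of all genes), TMM size factors (47%), the low-count filter (57.1%) or without libraries numbered 1 (45%), and 7 with spike-in size factors (60.5%).

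Spike-in size factors moved the median of all genes between genotypes to as far as -0.71 (DM against *Kdm5c*-KO, hippocampus), and that of the members to -0.29 (DM against *Kdm5c*-KO), -0.39 (DM against *Kmt2a*-HET) and -0.42 (departure from the sum) in the amygdala. In the hippocampus the members' medians became 0.24 (*Kdm5c*-KO), -0.32 (DM), -0.69 (DM against *Kdm5c*-KO), -0.45 (DM against *Kmt2a*-HET), -0.58 (departure from the sum) and -0.41 (*Kmt2a* contrast). Between regions they became 0.57 (WT), 0.35 (*Kmt2a*-HET), 0.77 (*Kdm5c*-KO), 0.38 (DM) and 0.48 (all), and the region differences -0.21 (*Kmt2a*-HET) and -0.11 (DM). Over all genotypes *C1qa* (0.48), *C1qb* (0.40), *C1qc* (0.48), *Csf1r* (0.58), *Cx3cr1* (0.65), *Tmem119* (0.50) and *Ctss* (0.46) had the other sign. The median of all genes became 0.64 between regions over all genotypes, and took other values between genotypes. Against WT in the hippocampus it was 0.19 for *Kdm5c*-KO and -0.51 for DM. Whether the members moved apart from all genes was not tested, so these spike-in values are no result about the members. Of 216 member changes, 3 changed sign with TMM size factors, 2 with edgeR, 42 with the length covariate, 55 without libraries numbered 1 and 112 with spike-in size factors.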
